A study of Sus scrofa with 4 samples.

Results

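Nuclear receptors were followed in the ileum, the final stretch of the small intestine, of suckling piglets with low or high weight gain. The 7 pig genes were *NR0B1*, *NR1I2*, *NR1I3*, *NR1H3*, *NR3C1*, *PPARG* and *VDR*, of 2389 genes that could be named on the array. They were read by 15 probes, found by the RefSeq transcript that the array design gives for each probe. *NR1I2*, *NR1H3*, *NR3C1* and *PPARG* had 3 probes each, and the other 3 genes had 1. The genes were chosen by their family and by a measured value, the low signal of *NR0B1* in the low-gain group, which was known when the group was put together. Differences between low and high gain in these 7 genes are therefore given as a description, with no test.

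Low gain was represented by 2 arrays, each hybridised with RNA pooled from 2 piglets, and high gain by 2 arrays, each with RNA pooled from 3 piglets. Every piglet was 16 days old and suckled by a sow, from Duroc sires crossed with Yorkshire × Landrace dams. The design text describes the groups by weight at birth instead, and the groups used here are those of the sample labels. Within a group the arrays are lettered a and b. The labels do not say whether these were separate pools or the same pool measured again, so that the spread between them may be technical and does not measure variation between piglets.

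Nuclear receptors are transcription factors, many of which are switched on by small fat-soluble ligands such as steroids, bile acids, oxysterols and vitamin D. Most bind DNA through zinc fingers, often as a dimer with a retinoid X receptor, and recruit coactivators or corepressors. *NR0B1* encodes DAX-1, an unusual member without the typical DNA-binding domain that represses other receptors, best known for its role in the adrenal gland and gonads. In the intestine the family is known for control of drug metabolism, cholesterol export, calcium uptake and the response to glucocorticoids.

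Between 32835 and 33972 of 43803 non-control spots were well above background on each array by the scanner's flag, and no spot was saturated. Values are log2 processed signals minus the array's 75th percentile, so that 0 is the signal below which 75% of spots lie, and they compare arrays for 1 probe and not probes with each other. The fit across all probes took those detected above background on both arrays of a group, in 1 group or both. These were 33265 probes with a median log2 difference of 0.02 (low gain minus high gain). Of 14 listed enterocyte genes 7 were measured, all above background in both groups. This does not identify the tissue, since only genes detected above background in a group were taken. The 7 measured genes of steroid-producing cells and the 3 of liver were above background in both groups as well. *FABP6*, which encodes the bile acid binding protein of the ileum, differed by 0.02 ± 0.12 (SE, n = 2 arrays per group). Its sign turned with quantile normalisation (-0.02).

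Each of the 15 receptor probes was detected well above background on every one of the 4 arrays. The low-gain mean was below the high-gain mean for 9 probes (47.3% of all tested probes) and above it for 6, with a median difference of -0.15. Both low-gain arrays lay below both high-gain arrays for 7 probes (26.9% of all tested probes did so) and above them for 3 (27.6% of all). Groups that do not overlap were thus common on this slide, at 54.5% of all tested probes, and 10 of the 15 receptor probes were among them. In the fit across all probes 1 of the 15, that of *NR0B1*, was among the probes past the threshold, against 0.240% of all probes, a count that the choice of the genes fixes. With limma's standard prior variance, *NR0B1* was no longer past it when any 1 array was left out. A prior variance that depended on intensity was combined with leaving out low-gain array a only. Of all probes 36 passed without low-gain array a, 37 without low-gain array b and 0 without either high-gain array under the standard prior, where 3071 (a) and 5662 (b) had an unadjusted p under 0.05. In ileum slices, fewer cells of a type and less RNA per cell cannot be told apart.

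**Figure D1:**
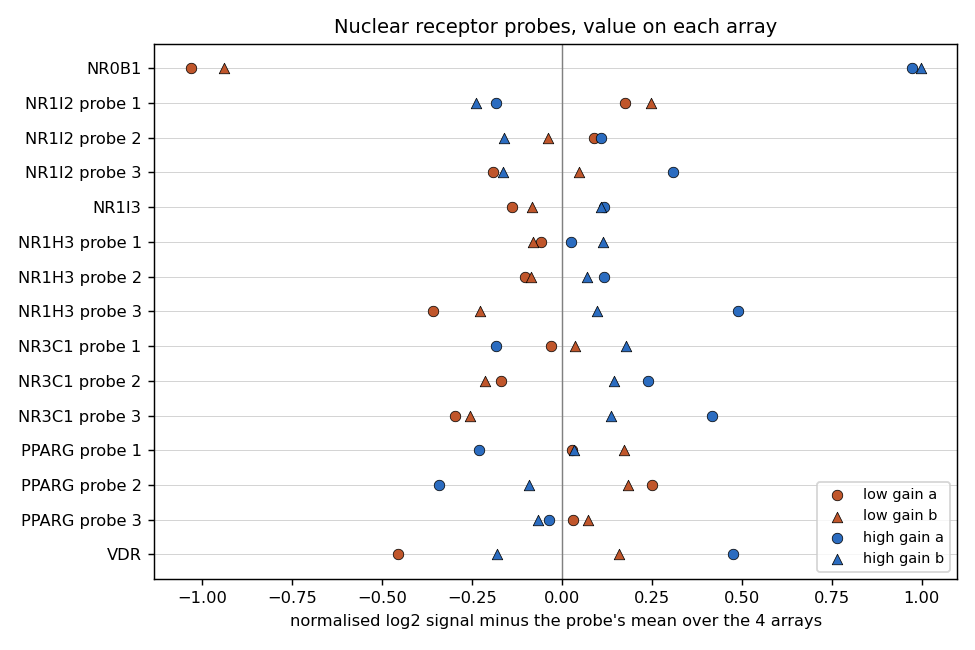
Normalised log2 signal of each receptor probe on each array, as the deviation from that probe's mean over the 4 arrays (x axis, log2 units). Circles are arrays a and triangles arrays b, with low gain in orange and high gain in blue. The *NR0B1* groups stand 1.91 apart at their closest arrays, while the arrays of *VDR* are interleaved.

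*NR0B1* was the receptor with the widest separation. Its probe gave processed signals of 41.4 and 50.0 intensity units on low-gain arrays a and b, and of 195 and 194 on high-gain arrays a and b. The scanner software put the errors of these signals at 4.41 and 5.14 units in low gain and 19.6 and 19.4 in high gain. The local background was 16 to 17 units on each array. The low-gain signals were dim, but the lowest signal well above background was 6.72 units on low-gain array a and 5.56 on low-gain array b, so that both low-gain values of *NR0B1* were measured and not only bounded.

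After normalisation, *NR0B1* was at -3.31 and -3.22 on low-gain arrays a and b. It was at -1.30 and -1.28 on high-gain arrays a and b. Both low-gain arrays were low, both high-gain arrays were high, and the 2 arrays of a group lay within 0.10 of each other. The log2 difference was -1.97 ± 0.10 (SE, n = 2 arrays per group), which is a 3.92-fold lower signal in low gain. Tested probes of a similar level, within 0.5 log2 of it, had a median gap between arrays a and b of 0.16 for low gain and 0.17 for high gain. Among 2158 genes read by 1 probe each, 3 had a lower value than *NR0B1* and 7 a larger difference in either direction. *NR0B1* was read by 1 probe, so no other probe bears on this difference.

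The size of the *NR0B1* difference depended on how dim signals were treated. With normexp, a background correction that models signal and background together, and an added offset of 50 units, it was -0.61. When local backgrounds above the 99th percentile were first replaced by the array's median background, it was -1.18. Plain subtraction of the local background from the spot's median signal gave 44.5 and 55 units in low gain and 195.5 and 199 in high gain, a raw log2 difference of -1.995 before any scaling between arrays, and adding 50 units to these 4 values alone brought it to -1.31. The table deposited by the authors gave -2.06.

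**Figure D2:**
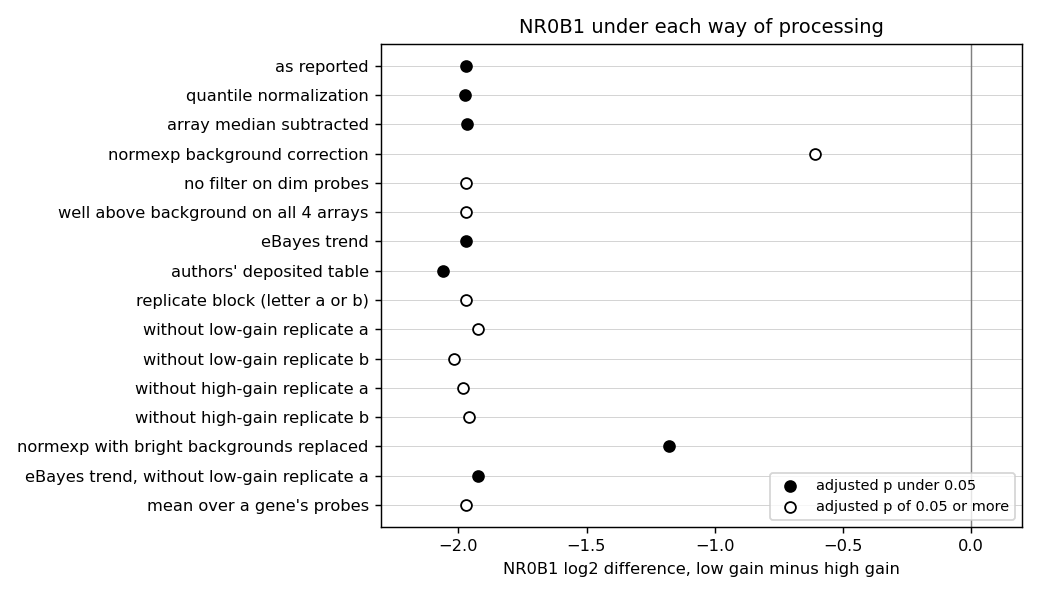
Log2 difference of *NR0B1* (x axis, low gain minus high gain) under each way of processing (y axis). Filled points had an adjusted p under 0.05 in limma's fit and open points did not. The gene was chosen by this signal, so these marks are a description and no test. The difference was negative in each setting and was closest to 0 with the normexp background correction, at -0.61.

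The glucocorticoid receptor gene *NR3C1* was read differently by its 3 probes. Its brightest probe was at 2.35 and 2.42 on low-gain arrays a and b, and at 2.20 and 2.57 on high-gain arrays a and b. The groups overlapped, and the difference was 0.00 ± 0.16. The second probe was at -0.67 and -0.71 in low gain and at -0.26 and -0.35 in high gain, a difference of -0.38 ± 0.10. The third, at -0.93 and -0.89 against -0.21 and -0.50, differed by -0.55 ± 0.14. Both of these lay lower on each low-gain array than on either high-gain array, while the brightest probe did not. The files do not say which part of a transcript each probe reads.

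The receptors of xenobiotics also differed from probe to probe. *NR1I2* encodes the pregnane X receptor, which switches on drug-metabolising enzymes and transporters. Its brightest probe was at 2.14 and 2.22 on low-gain arrays a and b, and at 1.79 and 1.73 on high-gain arrays a and b. Here low gain was the higher group, by 0.42 ± 0.10 or 1.34-fold. The second probe was at -0.57 and -0.70 in low gain and at -0.55 and -0.82 in high gain, a difference of 0.05 ± 0.14. The third was at -3.27 and -3.03 against -2.77 and -3.25, a difference of -0.15 ± 0.21. The groups overlapped on both of these. *NR1I3*, the gene of the constitutive androstane receptor, a close relative of *NR1I2*, was at 0.02 and 0.07 in low gain and at 0.27 and 0.26 in high gain. Its only probe thus lay lower on both low-gain arrays, by 0.22 ± 0.10.

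*NR1H3* was lower in low gain on all of its 3 probes. It encodes liver X receptor alpha, the oxysterol sensor that drives cholesterol export and fat synthesis and is prominent in macrophages. The brightest probe was at 4.86 and 4.84 on low-gain arrays a and b and at 4.94 and 5.03 on high-gain arrays a and b, a difference of -0.14 ± 0.10. The second gave 1.38 and 1.39 against 1.60 and 1.55, which is -0.19 ± 0.10. The third gave -1.51 and -1.38 against -0.67 and -1.06, which is -0.59 ± 0.18 (-0.39 without high-gain array a). The groups were apart on each probe, but the sizes differed by 0.45 between probes of the 1 gene. Among macrophage genes, 4 of 9 listed were measured, all 4 with lower low-gain means (46.6% of all genes had lower ones). Their summed signal, in units of the array's 75th percentile, was 19.8 and 20.0 on the low-gain arrays but 22.02 and 21.8 on the high-gain arrays, and its part in the *NR1H3* values was not tested. The brightest of the 4, *AIF1*, named after its value was seen, weighs most in this sum. It differed by -0.07 ± 0.10 (limma adjusted p = 0.724), and its other probe by 0.002. The scavenger receptor gene *CD163* differed by -0.41 ± 0.10 (limma adjusted p = 0.198). *SIGLEC1*, a sialic acid binding receptor gene of macrophages, differed by -1.57 ± 0.41 (adjusted p = 0.207) with 1 of the 2 low-gain arrays above background.

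*PPARG* had higher low-gain means on all 3 probes. It encodes the receptor that drives fat cell formation and is also active in gut epithelium and macrophages. The brightest probe was at -0.39 and -0.25 on low-gain arrays a and b and at -0.65 and -0.39 on high-gain arrays a and b, with groups that just overlapped and a difference of 0.20 ± 0.14. This was 0.067 without high-gain array a, 0.33 without high-gain array b and 0.13 without low-gain array b. The second was at -0.20 and -0.27 against -0.79 and -0.54, which is 0.43 ± 0.13. The third was at -0.46 and -0.42 against -0.53 and -0.56, which is 0.10 ± 0.10. The last 2 probes did not overlap between groups.

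*VDR*, the gene of the vitamin D receptor, which controls calcium uptake, was not separated by weight gain. Its probe was at -3.92 and -3.30 on low-gain arrays a and b, and at -2.99 and -3.64 on high-gain arrays a and b. High-gain array a was the highest and low-gain array a the lowest, with the b arrays between them. The arrays of 1 group differed by 0.61 in low gain and 0.66 in high gain, more than the difference between groups of -0.30 ± 0.33. Its sign turned to 0.01 without low-gain array a and to 0.03 without high-gain array a. This was a dim probe, at 27.2 to 61.0 intensity units.

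**Figure D3:**
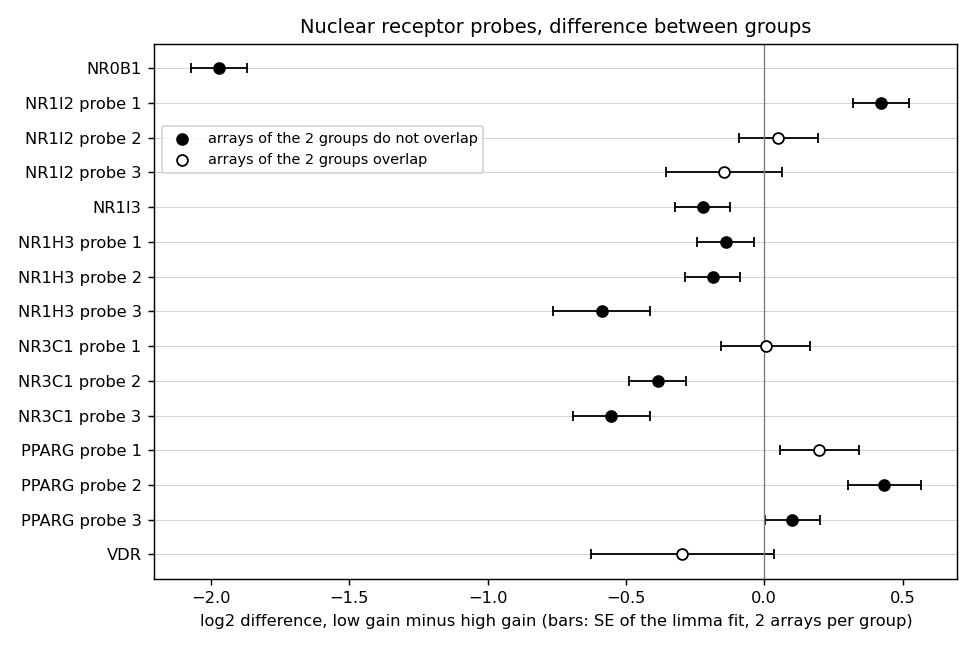
Log2 difference between groups for each receptor probe (x axis, low gain minus high gain), with bars of 1 SE from limma's fit and 2 arrays per group. Filled points mark probes whose groups do not overlap. *NR0B1* sits at -1.97, and the other 14 probes lie between -0.59 and 0.43.

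The genes around the receptors were taken from 9 lists of partners, cofactors and known targets. Of 187 listed genes 90 were tested, and in limma's fit 0 of 90 passed over all probes, against 0.417% of all 2158 genes read by 1 probe each. At an unadjusted p under 0.05 there were 24 (26.7%, against 21.6% of all genes). Their median difference was 0.03, and that of all genes 0.02. Lower low-gain means were found for 46.7% of the 90, against 46.6% of all genes. The genes named below are from the 2 with the largest difference in each list. Under alternative processing, *FABP4* passed with the array median subtracted. When limma's prior variance was allowed to depend on intensity, 12 of the 90 passed, 6 higher and 6 lower, *FABP4* and *HSD11B2* among them.

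Genes of steroid synthesis and the partners of *NR0B1* had a median difference of 0.11 over 14 tested members, with 9 higher and 5 lower means and 0 past the test (1 at an unadjusted p under 0.05). That 1 was *HSD11B2*, whose enzyme inactivates glucocorticoids. It was at 0.76 and 0.77 on low-gain arrays a and b and at -0.21 and -0.54 on high-gain arrays a and b, a 2.20-fold higher signal in low gain (1.14 ± 0.15, limma adjusted p = 0.132). *HSD17B1*, which encodes an estrogen-activating enzyme, differed by -0.60 ± 0.30 (adjusted p = 0.365), which became -0.23 without low-gain array b and -0.975 without low-gain array a. Among 9 listed genes of steroid-producing cells, in which *NR0B1* is best known, 7 were measured. Their summed signal was 1.32 and 0.812 on the low-gain arrays, but 1.47 and 1.005 on the high-gain arrays, which overlap, and 0 of the 7 had an unadjusted p under 0.05. The inhibin gene *INHA* differed by -0.67 ± 0.42 (adjusted p = 0.450), or -0.11 without high-gain array a and -1.22 without high-gain array b, and its other probe by 0.086. *CYP17A1*, a steroid hydroxylase gene, differed by 0.42 ± 0.17 (adjusted p = 0.296), or 0.24 without low-gain array a.

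Known glucocorticoid targets had a median of 0.10 over 9 members, with 5 higher and 4 lower means, 0 past the test and 4 at an unadjusted p under 0.05. *HSD11B2* belongs to this list as well. *CEBPB*, a transcription factor gene, was above background in high gain but on neither low-gain array, so that the size of its difference is uncertain. It was 1.49-fold lower in low gain with each low-gain value raised, where lower, to the dimmest signal that its array still detected. This is no firm bound, since the undetected value on low-gain array b (-6.22) lay above the dimmest detected signal there (-6.38). The difference as read was -0.66 (limma adjusted p = 0.301). It became -0.31 without high-gain array a and -1.002 without high-gain array b. It was -0.093 with normexp and -0.046 once bright backgrounds were replaced.

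Targets of *NR1I2* and *NR1I3*, which encode enzymes of drug metabolism, had a median of 0.00 over 12 members, with 6 means on each side, 0 past the test and 3 at an unadjusted p under 0.05. *AKR1B1*, an aldose reductase gene, differed by -0.53 ± 0.11 (adjusted p = 0.181), and its other probe by -0.87. *CES1*, a carboxylesterase gene, differed by 0.39 ± 0.11 (adjusted p = 0.221), while its 6 other probes ran from -0.29 to 0.45.

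Targets of *NR1H3* had a median of 0.09 over 8 members, 4 on each side, with 0 past the test and 1 at an unadjusted p under 0.05. *APOE*, which encodes a lipoprotein that carries cholesterol from macrophages, was at 1.51 and 1.48 on low-gain arrays a and b and at 2.43 and 2.19 on high-gain arrays a and b (-0.81 ± 0.13, adjusted p = 0.154). *PLTP*, a phospholipid transfer protein gene, differed by -0.62 ± 0.38 (adjusted p = 0.445), which became -0.096 without low-gain array a and -1.14 without low-gain array b.

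Targets of *PPARG*, among them fat cell genes, had the lowest median of the 9 lists, -0.26 over 20 members. Their means were lower in low gain for 13 and higher for 7. None passed limma's test, and 10 had an unadjusted p under 0.05, 8 lower and 2 higher. *FABP4*, a fatty acid binding protein gene of fat cells, was at 0.04 and 0.08 on low-gain arrays a and b and at 1.53 and 1.70 on high-gain arrays a and b (-1.55 ± 0.12, adjusted p = 0.0561), and its 5 other probes gave -1.60 to -1.35. *PLIN1*, which coats fat droplets, differed by -1.63 ± 0.55 (adjusted p = 0.257) and was detected on 1 of its 2 low-gain arrays. It was at -0.88 without low-gain array a, -0.66 in the table deposited by the authors and -0.031 with normexp. All 8 listed fat cell markers are also in this list. Their summed signal was 14.2 to 14.4 in low gain and 16.3 to 16.5 in high gain, with a median difference of -0.46. The means of 5 were lower in low gain and those of 3 higher. Among the latter, named after its value was seen, *RETN*, the resistin gene, differed by 1.04 ± 0.10 (adjusted p = 0.0833), and its other probe by 1.78. The *PPARG* probes themselves had higher low-gain means. The part of fat cells in these values was not tested.

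Targets of *VDR* had a median of -0.01 over 8 members, 4 on each side, with 0 past the test and 1 at an unadjusted p under 0.05. The largest difference was that of *SPP1*, the osteopontin gene, at 0.52 ± 0.10 (adjusted p = 0.172), although its 3 other probes ran from -0.11 to 0.42. *CYP27B1*, whose enzyme activates vitamin D, differed by -0.39 ± 0.32 (adjusted p = 0.549). It was detected on 1 of its 2 low-gain arrays. It was at -0.085 without low-gain array a, -0.70 without low-gain array b, -0.079 without high-gain array a and -0.70 without high-gain array b, and at 0.05 under normexp once bright backgrounds were replaced.

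Of 13 other nuclear receptor genes tested, 11 had higher and 2 lower low-gain means (46.6% of all genes had lower ones). Their median was 0.18, with 0 past the test and 3 at an unadjusted p under 0.05. *RXRG*, a retinoid X receptor gene, differed by 0.71 ± 0.12 (adjusted p = 0.163). The other 2 *RXRG* probes gave 0.60 and 0.71. Coregulators and chaperones had a median of -0.11 over 9 members, with 4 higher and 5 lower, 0 past the test and 3 at an unadjusted p under 0.05. *FKBP4*, a chaperone gene of steroid receptors, differed by -0.83 ± 0.20 (adjusted p = 0.198). *PPARGC1A*, a coactivator gene of *PPARG* and other receptors, differed by 0.59 ± 0.11 (adjusted p = 0.170). Of 7 ileal bile acid genes, *FABP6* was the 1 tested.

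**Figure D4:**
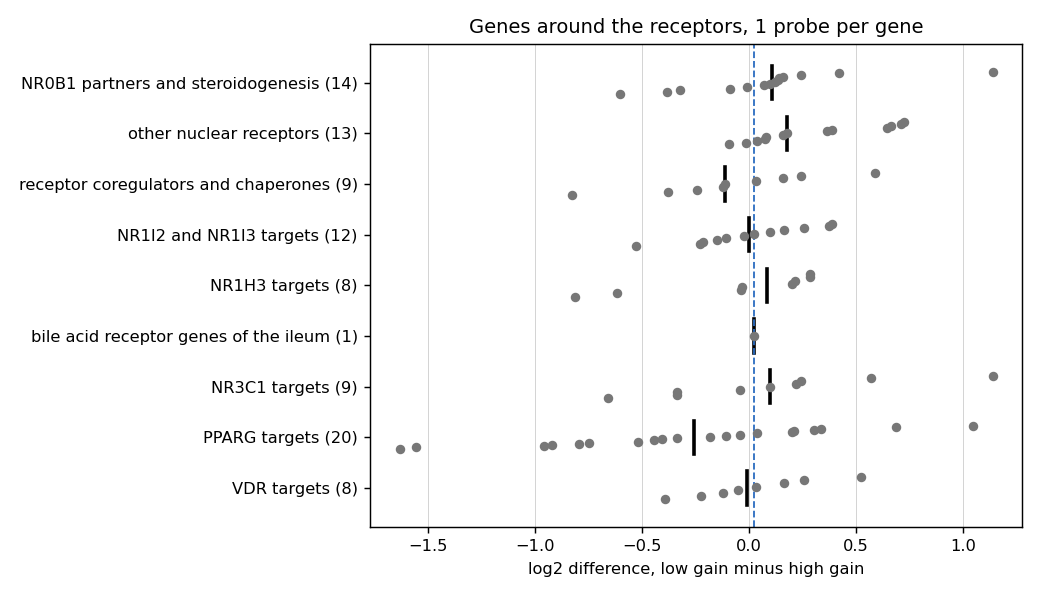
Log2 difference of each gene of the 9 lists (x axis, low gain minus high gain; 1 point per gene, its brightest probe), with the number of genes tested in brackets. Black bars are list medians and the dashed line is the median of all 2158 genes, 0.02. The median of the *PPARG* targets, -0.26, is the farthest from that line.

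Among the 2157 other genes, those whose pattern over the 4 arrays was closest to that of *NR0B1* were found by the root mean square distance after each probe was centred on its mean. The closest was *SAA3*, which encodes a serum amyloid of the acute phase, at a distance of 0.03. It was at 2.15 and 2.22 on low-gain arrays a and b and at 4.08 and 4.12 on high-gain arrays a and b, and its 4 other probes differed by -1.94 to -1.81 between groups. *FABP4* followed at 0.22. The lysozyme gene *LYZ*, at 0.23, had 2.72 and 2.68 in low gain and 4.19 and 4.26 in high gain. *PHEROC*, a pheromaxein gene, also at 0.23, differed by -1.93 ± 0.23 (adjusted p = 0.122), and its 2 other probes by -3.54 and -3.07. The *PHEROC* probe was dim, at -5.25 and -5.65 on low-gain arrays a and b. Its difference was -0.24 with normexp and -0.43 once bright backgrounds were replaced. *SERPINA3-2*, a serine protease inhibitor gene, was at 0.35 and differed by -1.32 ± 0.20 (adjusted p = 0.147). The distances of the other 6 receptors, by their brightest probes, were 0.87 for *NR1I3*, 0.89 for *VDR*, 0.92 for *NR1H3*, 0.99 for *NR3C1*, 1.09 for *PPARG* and 1.20 for *NR1I2*. The 5 genes above were picked as the closest, so that every other gene lies farther away by choice. With 4 arrays in 2 groups, likeness here means a like difference between the groups.

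Markers of other cells also had different summed signals in the groups, although 0 of these genes passed limma's test, and their part in the receptor values was not tested. Of the 7 enterocyte genes, all had higher low-gain means, with a median of 0.46 (46.6% of all genes had lower ones). Their summed signal was 796 to 820 in low gain and 642 to 721 in high gain. In each list such a sum weighs the brightest probes most. Here *FABP6* alone gave 401 and 420 on the low-gain arrays and 376 and 434.5 on the high-gain arrays. The peptidase gene *ANPEP* differed by 0.68 ± 0.10 (adjusted p = 0.141) and the adhesion gene *CDH1* by 0.58 ± 0.10 (adjusted p = 0.162). Of 8 smooth muscle genes 5 were measured, 4 with higher and 1 with a lower low-gain mean, with a median of 0.48 and a summed signal that was 308 and 303 on the low-gain arrays but 235 and 233 on the high-gain arrays. *MYLK*, a myosin kinase gene, differed by 0.56 ± 0.11 (adjusted p = 0.170), and *DES*, the desmin gene, by 0.51 ± 0.10 (adjusted p = 0.176). The 2 other *DES* probes gave -0.34 and -0.02. The lower gene was the actin gene *ACTA2*, named after its value was seen, at -0.25 ± 0.15 (adjusted p = 0.445), with 3 other probes from -0.61 to 0.23.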

How the data were processed

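The deposited files are scanner output with an intensity per spot from Agilent Feature Extraction 10.7.3.1 with 1 colour (Cy3), per the file headers. Processed signals were taken to log2 and centred on the 75th percentile of the array (control spots excepted). Flagged outlier spots were then left out, and repeated spots of a probe were averaged. The authors' deposited table of log2 values, an alternative here, followed the scanner values above background with slopes of 1.00 to 1.01 and correlations of 0.984 to 0.999; its column medians were 5.62 and 5.59 in low gain and 5.67 and 5.60 in high gain. How it was made is not stated in the sources used. Probes were named through RefSeq transcripts in an NCBI gene table of Sscrofa11.1, which named 5461 of 43603 probes. No positions are given, since no genome build is named in the files.

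Groups were compared with limma 3.58.1 in R 4.3.3 over all 33265 tested probes, with Benjamini-Hochberg adjustment and a threshold of 0.05; a gene of a list is read by its brightest tested probe. The fit was tested on simulated data. Members, lists and tests were chosen with earlier results of these data known. The named genes are the members, the 2 genes with the largest difference in each list and the 5 most like *NR0B1*; 2 genes of this rule are not reported here, though list counts hold them. Precision is limited by the number of arrays.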

Additional observations from a re-analysis of the deposited data

How the results depend on the processing

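The choice of *NR0B1* by its low signal fixed its direction, so its values under other processing are a description and no sign of stability. Its calls by the threshold are no test either, for the same reason. It was past the threshold in 6 of 15 alternatives. It was no longer past it with normexp (-0.61), with no filter on dim probes, with signal required on all 4 arrays, with probes of a gene averaged and with the replicate block on the letters (-1.97 in each of these), nor, under the prior variance of the report, when any 1 array was left out (-2.02 to -1.92).

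Of all probes, 80 passed. This was 163 with the array median subtracted (70 higher, 93 lower), 12 without the filter, 1250 with the intensity trend, 1105 with bright backgrounds replaced and 197 with the trend and without low-gain array a, the last 2 chosen after seeing the data. It was 0 with normexp (0 at an unadjusted p under 0.05), with signal on all 4 arrays (6071) and with the replicate block (4703), and 0 to 37 without 1 array: 36 without low-gain a, 37 without low-gain b and 0 without either high-gain array. Same-lettered arrays did not deviate together (correlation -0.04). Of the pathway genes, 1, 12, 10 and 2 passed with the median, the trend, bright backgrounds replaced, and the trend without low-gain array a.

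The brightest *NR1I2* probe (0.42) was past the threshold with the trend, and no other receptor probe beside *NR0B1* was in any alternative. For these chosen genes such calls are a description and no test. Signs turned for 4 of the other 14 receptor probes, all with groups that overlap. The second *NR1I2* probe was at -0.0725 with normexp, -0.0046 in the authors' table and -0.0127 with the trend without low-gain array a, and ran from -0.084 to 0.19 without 1 array. The third *NR1I2* probe ran from -0.38 to 0.090 without 1 array. The brightest *NR3C1* probe was at -0.012 with quantile normalisation, -0.0199 with normexp, -0.069 with bright backgrounds replaced, -0.086 in the authors' table and -0.31 as the mean of its gene's probes, and ran from -0.18 to 0.19 without 1 array. *VDR* was at 0.0106 with the trend without low-gain array a and ran from -0.62 to 0.032 without 1 array. The other named genes were picked by their differences on these same arrays, so kept directions are no sign of stability. Of these 34 genes 32 kept their direction in each alternative. The others were *CYP27B1* (0.053 with bright backgrounds replaced) and *FABP6* (-0.021 with quantile normalisation, -0.082 to 0.13 without 1 array).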

Other observations

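Genes of lymphocytes, skeletal muscle and liver were also listed as other cells that a slice could hold, and 0 of them passed limma's test. Of all genes, 46.6% had a lower low-gain mean and 21.6% an unadjusted p under 0.05. All 8 T cell genes were measured, with a median difference of 0.29 (low gain minus high gain) and 5 at an unadjusted p under 0.05. They did not move one way. *CD8A*, a coreceptor gene of killer T cells, differed by 0.95 ± 0.11 (limma adjusted p = 0.118), and 0.03 by another probe, whereas *CD247*, the zeta chain gene of the T cell receptor complex, differed by -0.67 ± 0.12 (adjusted p = 0.161), and -0.86 by another probe. The summed signal of the 8 genes was 16.6 to 16.8 in low gain and 19.8 to 21.3 in high gain. A sum weighs bright probes most. The brightest here, *CD247*, was at 3.13 and 3.21 in low gain and at 3.92 and 3.76 in high gain. The lower sum in low gain has the direction of *CD247*, while 6 of the 8 genes had higher low-gain means. Of 6 listed B cell genes 2 were measured, 1 with a higher and 1 with a lower low-gain mean, and 0 had an unadjusted p under 0.05. The lower was the B cell receptor gene *CD79A*, which differed by -0.31 ± 0.13 (adjusted p = 0.316), or -0.19 without high-gain array b.

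The 8 measured genes of skeletal muscle had a median of 0.21, all with higher low-gain means and 4 at an unadjusted p under 0.05. *MYH2*, a myosin heavy chain gene, differed by 0.73 ± 0.14 (adjusted p = 0.178). This was a dim probe, at -5.42 and -5.33 in low gain and -5.96 and -6.24 in high gain. Its difference was 0.05 with normexp and 0.18 once bright backgrounds were replaced. *CKM*, the muscle creatine kinase gene, differed by 0.55 ± 0.10 (adjusted p = 0.165). The 9 other *CKM* probes ran from -0.27 to 0.65. The 3 measured liver genes had a median of 0.39 and 2 at an unadjusted p under 0.05. The prothrombin gene *F2* differed by 0.55 ± 0.12 (adjusted p = 0.190) and *SERPINA1*, an antitrypsin gene, by 0.39 ± 0.10 (adjusted p = 0.207).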
